A study of Mus musculus with 5 samples.

Results

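Genes that coat, build up and break down the lipid droplet were examined in RNA-seq values of tibialis anterior (TA), a fast-twitch muscle of the lower leg. The group holds 9 of the 17015 genes in the table, taken by name: the perilipins Plin2, Plin3, Plin4 and Plin5, the lipases Pnpla2, Lipe and Mgll, and the lipase regulators Abhd5 and G0s2. The 5 libraries came from 8-week-old sedentary male mice, bred from C57BL/6J mice with floxed Nrip1 and C57BL/6JN mice with Cre. The 3 WT control libraries are from Cre-negative littermates, and the 2 libraries labelled skmNrip1-/-, called knockout-labelled below, are from Nrip1 fl/fl mice with Cre under the myogenin promoter. That promoter is active in differentiating skeletal muscle cells, so the other cell types of the muscle should keep Nrip1, which encodes the nuclear receptor coregulator RIP140. Each library is treated as 1 mouse, and the comparison asks whether loss of RIP140 in muscle goes with a different level of each gene. Values are given in replicate order, 1 to 3 for WT control and 1 to 2 for the knockout-labelled libraries.

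A lipid droplet is a core of triglyceride inside a single layer of phospholipid, and perilipins sit on that layer and control which lipases reach the core. Stored triglyceride is taken apart in steps: ATGL (Pnpla2) removes the first fatty acid, hormone-sensitive lipase (Lipe) acts mainly on the diglyceride, and monoglyceride lipase (Mgll) frees the last one. CGI-58 (Abhd5) activates ATGL and G0S2 inhibits it. Plin5 is the perilipin of oxidative tissues, where it brings droplets into contact with mitochondria, and endurance-trained muscle is known for droplets placed beside mitochondria.

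The unit of the table is FPKM, a fragment number divided by transcript length and by a measure of library size. The libraries are on a common median scale: the median ratio to the genes' geometric mean was 1.002 in each of them. FPKM sums ranged from 969144 to 1288038 per library, and genes encoded by mtDNA took 45.4% to 50.7% of the sum in WT control TA and 58.6% and 60.9% in the knockout-labelled libraries. The fragment totals are not in the table, but low FPKM values of genes with 1 long transcript move in steps that are worth 1 fragment. From these steps the library size used in the scaling, relative to WT control replicate 1, was 0.83 to 1.1. At the same steps, and with the length of the longest transcript, the members had from 628 fragments (G0s2) to 21974 (Pnpla2) in a library, for an estimated counting error of at most 4.0%. The targeted gene went against its label. Nrip1 had an FPKM of 4.64, 7.69 and 6.55 in WT control TA and 25.3 and 22.5 in the knockout-labelled libraries. The log2 fold change of Nrip1 was 1.94 (SE 0.21, adjusted p = 0.0261 from limma), and the adjusted p was 0.146, 0.204 and 0.142 without WT control replicate 3, knockout-labelled replicate 1 and knockout-labelled replicate 2. Nrip1 was also not called without the eBayes trend (adjusted p = 0.0769 from limma) or with the replicate number as a block (0.128). That block likewise takes WT control replicate 3 out of the estimate. A value per gene cannot show whether exon 4, which Cre removes, was lost, so every direction below rests on the labels. The study checked this line by Nrip1 RNA and RIP140 protein in gastrocnemius and heart, other tissues than the TA used here. The study also measured Nrip1 RNA in this line by RT-qPCR in a tissue that the figure legend does not name. It gives 3 mice per group for TA RNA-seq, where 2 knockout-labelled libraries were used here. As a check of the tissue, Myh4, the myosin heavy chain of the fastest fibers, was at 6416 to 8478 FPKM over the 5 libraries, and Myh7, that of slow fibers, was at 0.449 to 1.72 FPKM.

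A limma fit on log2(FPKM + 0.1) covered 12148 genes, those averaging 0.5 FPKM or more. To be called, a gene needed both an adjusted p no larger than 0.05 and a fold change no smaller than 1.2. All 9 members passed the FPKM minimum and none was called, where 0.453% of all genes tested were called, 0.370% as higher and 0.0823% as lower. Plin5 stood apart in size: its mean level in the knockout-labelled libraries was 2.62 times the WT control mean. For Pnpla2 this ratio was 1.33, and the means of the other 7 lay between 0.873 and 1.27 times the WT control mean. Before adjustment, 2 of the 9 members, Plin5 and Pnpla2, had a p of 0.05 or less, both as higher, beside 11.9% of all genes tested (6.57% higher and 5.33% lower). In 4 members the libraries of the groups did not overlap, Plin5 and Pnpla2 with skmNrip1-/- above and Plin2 and Plin4 with it below, beside 30.2% of all genes tested (15.8% above and 14.4% below). The median log2 fold change of the members was 0.01, and that of all genes tested was -0.00.

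**Figure D1:**
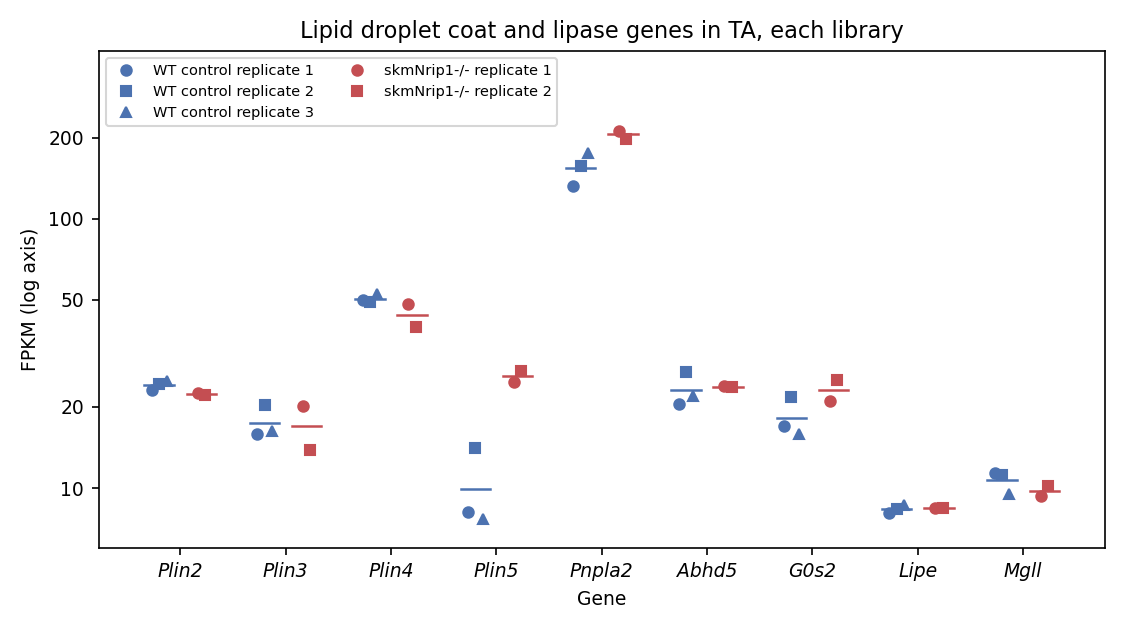
FPKM of the 9 genes on a log axis, with 1 point per library (blue, WT control; red, skmNrip1-/-; marker shape, replicate number) and a line at each group mean. Plin5 is the gene whose groups lie farthest apart, from 7.65 to 14.0 FPKM in WT control TA and at 24.7 and 27.3 in the knockout-labelled libraries.

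Levels, which FPKM puts on a per-length scale, set the members in an order within WT control TA. Pnpla2 had the highest level in every library, and Plin4 the next. Plin2, Abhd5, G0s2 and Plin3 followed at 15.8 to 26.9 FPKM in WT control TA, where neighbours in this order overlapped between libraries. Mgll, Plin5 and Lipe were lowest, at 7.65 to 14.0 FPKM, and neighbours among these overlapped too. Lipe had rank 9 in every library except WT control replicate 3, where Plin5 was lowest. Plin5 had rank 3 in both knockout-labelled libraries, against rank 8, 7 and 9 in WT control replicates 1, 2 and 3, and Plin3, Mgll and Lipe were the lowest there.

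Plin5 (ENSMUSG00000011305) lies on the minus strand of chromosome 17, from 56111601 to 56117596 on GRCm38, and its longest transcript has 9 exons and 1986 nucleotides. Its FPKM was 8.15, 14.0 and 7.65 in WT control TA and 24.7 and 27.3 in the knockout-labelled libraries. The lower of the latter was 1.76 times the highest WT control value, and the WT control values themselves spanned 1.83-fold, with replicate 2 above the others. The mean was 9.94 ± 3.55 (SD, n = 3) against 26.0 ± 1.82 (SD, n = 2). The log2 fold change was 1.43 (SE 0.26, 95% CI 0.81 to 2.06), with an adjusted p of 0.111 from limma, and 120 other genes had an unadjusted p at least as small. WT control replicate 2 decided the call: without it the log2 fold change was 1.71 and the adjusted p 0.0202 from limma. With any other library left out, or under the other settings tried, Plin5 was not called, and its log2 fold change stayed between 1.13 and 1.51.

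**Figure D2:**
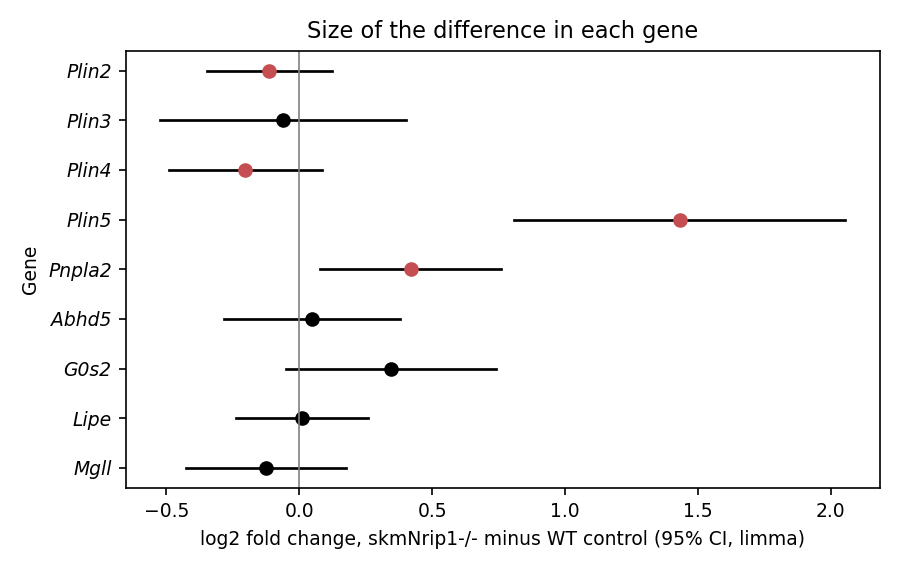
Log2 fold change of each gene (skmNrip1-/- minus WT control) with its 95% confidence interval from limma; red points are genes whose libraries did not overlap between the groups, black points those that did. The interval of Plin5, 0.81 to 2.06, lies above those of all the other genes shown, and the intervals are not adjusted for picking the largest difference.

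The 5′ region of Plin5 is shown because this gene had the largest difference, and those of Plin4 and Plin2 as other perilipins. Their log2 fold changes were -0.20 and -0.11. Plin3, the perilipin that differed least, at -0.06, is not shown. Sequences are from RefSeq on GRCm38.p6, which has an entry for all 9 members, and each runs from 250 bases before a transcript start to 50 after it, on the gene's own strand. Capitals mark the letters AGGTCA, the core half-site of many nuclear receptors, on either strand (TGACCT where it is on the other one). RefSeq gives Plin5 a pair of starts, whose windows are chr17:56117499-56117798 and chr17:56117249-56117548. The window of Plin4 is chr17:56109733-56110032 and that of Plin2 is chr4:86670010-86670309, all on the minus strand.
Plin5, upstream start: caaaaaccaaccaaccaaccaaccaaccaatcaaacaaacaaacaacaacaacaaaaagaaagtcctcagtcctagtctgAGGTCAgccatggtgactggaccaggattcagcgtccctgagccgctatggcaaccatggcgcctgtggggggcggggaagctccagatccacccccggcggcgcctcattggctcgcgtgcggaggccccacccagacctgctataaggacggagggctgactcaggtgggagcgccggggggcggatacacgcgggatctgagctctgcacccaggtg
Plin5, downstream start: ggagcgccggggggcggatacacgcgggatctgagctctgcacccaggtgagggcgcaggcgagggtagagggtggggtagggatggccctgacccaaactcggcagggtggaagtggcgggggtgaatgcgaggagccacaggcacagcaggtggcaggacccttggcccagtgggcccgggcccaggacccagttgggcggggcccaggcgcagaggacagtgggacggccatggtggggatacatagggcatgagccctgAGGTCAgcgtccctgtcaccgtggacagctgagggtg
Plin4: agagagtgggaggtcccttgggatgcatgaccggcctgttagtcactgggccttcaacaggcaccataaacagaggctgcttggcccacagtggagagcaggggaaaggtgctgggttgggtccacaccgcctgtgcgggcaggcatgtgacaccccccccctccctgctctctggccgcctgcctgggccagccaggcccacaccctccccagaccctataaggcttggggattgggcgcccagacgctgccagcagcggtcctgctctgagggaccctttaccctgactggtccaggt
Plin2: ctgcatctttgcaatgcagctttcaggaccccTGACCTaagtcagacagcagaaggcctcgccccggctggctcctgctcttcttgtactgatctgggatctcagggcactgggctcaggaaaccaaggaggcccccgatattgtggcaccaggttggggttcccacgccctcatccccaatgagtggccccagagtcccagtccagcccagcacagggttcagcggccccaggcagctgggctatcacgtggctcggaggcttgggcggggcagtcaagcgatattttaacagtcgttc
The half-site was found in both windows of Plin5, 170 bases before the upstream start and 13 bases after the downstream one, in that of Plin2 and in that of Abhd5, and not in the windows of the other 6 members. Across all 32851 windows of this length, 16.3% hold it. The direct repeat AGGTCANAGGTCA, which PPAR and RXR bind as a pair, is in 0.0396% of the windows and in none of the 12 windows of the members. These matches are of letters only, and a match is not a measured binding site.

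Plin4 (ENSMUSG00000002831, chromosome 17, 56100591 to 56109803, 9 exons), a droplet coat of adipose tissue and muscle, is the nearest gene in the table to Plin5, 1798 bases away on the same strand. Its FPKM was 49.7, 49.0 and 52.3 in WT control TA and 48.4 and 39.5 in the knockout-labelled libraries. The groups did not overlap, though by a margin smaller than the spread within either group, and the log2 fold change was -0.20 (95% CI -0.49 to 0.09, adjusted p = 0.584 from limma). It was -0.35 without knockout-labelled replicate 1 and -0.06 without knockout-labelled replicate 2. Exons of Plin4 share 17 bases with Hdgfl2 on the other strand.

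The surroundings of Plin5 were compared gene by gene. Of the 11 genes in the table with a gap of at most 100 kb to it, 10 were tested and none was called. Their log2 fold changes ran from -0.40 (Mpnd) to 0.06 (Dpp9), with 8 of 10 below 0, beside 6084 of all 12148 genes tested. Lrg1, which starts 4.4 kb from Plin5 on the other side from Plin4, had an FPKM of 11.6, 13.0 and 13.8 in WT control TA and 11.5 and 10.5 in the knockout-labelled libraries. For Lrg1 the log2 fold change was -0.22. The confidence interval of Plin5 did not overlap those of 9 of these 10 neighbours, the exception being the weakly expressed Chaf1a. Plin5 was picked as the member with the largest difference, and the intervals are not adjusted for that choice, so this is a description and no test.

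**Figure D3:**
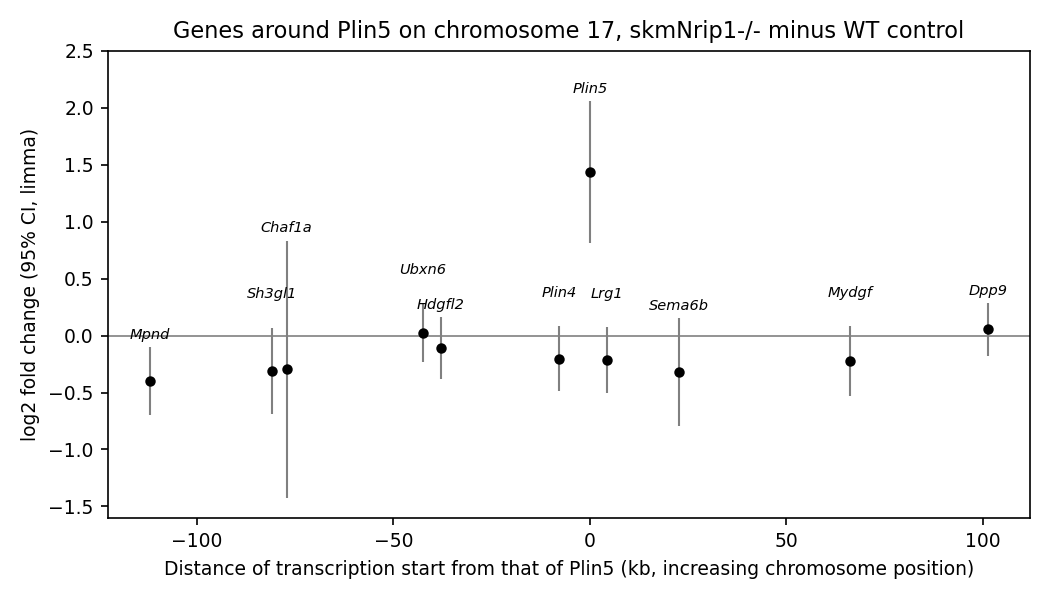
Log2 fold change with 95% confidence interval (limma) of the tested genes with a gap of at most 100 kb to Plin5, against the distance of their transcription start from that of Plin5 in kb. Plin5 is at 1.43, and the 10 neighbours are between -0.40 and 0.06.

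Plin2 (ENSMUSG00000028494, chromosome 4, 86648386 to 86670060, 8 exons in its longest transcript) coats droplets in most cell types. Its FPKM was 23.2, 24.4 and 25.0 in WT control TA and 22.6 and 22.1 in the knockout-labelled libraries. The libraries did not overlap, but the means differed little: 24.2 ± 0.941 (SD, n = 3) against 22.4 ± 0.383 (SD, n = 2). The log2 fold change was -0.11 (SE 0.10, 95% CI -0.35 to 0.12, adjusted p = 0.728 from limma), and the interval reaches from 0.786-fold to 1.09-fold.

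Plin3 (ENSMUSG00000024197, chromosome 17, 56277476 to 56292873, 8 exons), a perilipin that moves between the cytosol and young droplets, had an FPKM of 15.8, 20.3 and 16.3 in WT control TA and 20.1 and 13.8 in the knockout-labelled libraries. The latter held the second highest and the lowest value of the 5, and the groups overlapped. The log2 fold change of -0.06 (95% CI -0.52 to 0.40, adjusted p = 0.938 from limma) changed sign when either WT control replicate 2 or knockout-labelled replicate 2 was left out, to 0.05 and 0.21.

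Ratios of genes within a library do not depend on how the libraries were scaled. Plin5 made up 8.41%, 13.0% and 7.55% of the summed FPKM of Plin2 to Plin5 in WT control TA and 21.4% and 26.6% in the knockout-labelled libraries. Plin4 made up 45.5% to 51.6% in WT control TA and 41.8% and 38.4% in the knockout-labelled libraries, and Plin2 22.6% to 24.7% against 19.5% and 21.5%. The sum of these 4 genes itself overlapped between the groups, at 96.9, 107.7 and 101.3 FPKM in WT control TA and 115.9 and 102.7 in the knockout-labelled libraries. The ratio of Plin5 to Plin2 was 0.351, 0.576 and 0.306 in WT control TA and 1.09 and 1.24 in the knockout-labelled libraries, with no overlap. Shares and ratios are given as a description, because with groups of 3 and 2 the smallest p that an exact permutation test of 1 value can give is 0.1.

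**Figure D4:**
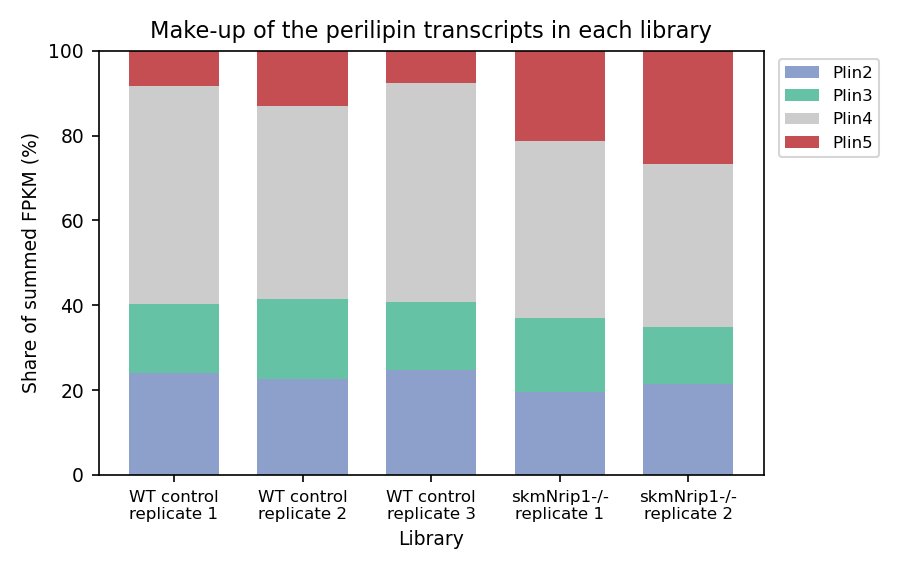
Share of each perilipin in the summed FPKM of Plin2 to Plin5, in percent, as 1 stacked bar per library. The Plin5 segment takes 7.55% to 13.0% in WT control TA and 21.4% and 26.6% in the knockout-labelled libraries.

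Pnpla2, the ATGL gene that opens triglyceride breakdown (ENSMUSG00000025509, chromosome 7, 141455198 to 141460743, 9 exons), had the highest level of the members. Its FPKM was 131.8, 156.7 and 175.1 in WT control TA and 212.4 and 198.3 in the knockout-labelled libraries. Both of the latter were above every WT control library, by at least 1.13-fold, and the WT control values spanned 1.33-fold. The log2 fold change was 0.42 (SE 0.14, 95% CI 0.08 to 0.76), with an unadjusted p of 0.0232 and an adjusted p of 0.329 from limma. Rescaling to TPM, which divides each library by its FPKM sum, reduced it to 0.12. That rescaling moved the median of all genes to -0.29, and relative to this median Pnpla2 stood at 0.41 and Plin5 at 1.42.

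G0s2, the inhibitor of ATGL (ENSMUSG00000009633, chromosome 1, 193272161 to 193273217, 2 exons), had an FPKM of 17.04, 21.8 and 15.9 in WT control TA and 21.1 and 25.2 in the knockout-labelled libraries. The groups overlapped through WT control replicate 2, and the log2 fold change was 0.35 (95% CI -0.05 to 0.74, adjusted p = 0.481 from limma). G0s2 lies inside Lamb3, which runs on the other strand, and shares no exonic base with it. Abhd5, the ATGL activator (ENSMUSG00000032540, chromosome 9, 122351608 to 122381524, 7 exons), had an FPKM of 20.5, 26.9 and 21.9 in WT control TA and 23.8 and 23.7 in the knockout-labelled libraries. The latter lay inside the WT control range, and the log2 fold change was 0.05 (95% CI -0.28 to 0.38, adjusted p = 0.926 from limma).

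The balance of ATGL and its partners was read as ratios. Pnpla2 over G0s2 was 7.73, 7.17 and 11.0 in WT control TA and 10.1 and 7.88 in the knockout-labelled libraries, and the groups overlapped. Abhd5 over G0s2 was 1.21, 1.23 and 1.37 in WT control TA and 1.13 and 0.941 in the knockout-labelled libraries, without overlap. Pnpla2 over Abhd5 was 6.42, 5.82 and 8.00 in WT control TA and 8.91 and 8.38 in the knockout-labelled libraries, also without overlap. With groups this small such separation is common: it was seen in 30.2% of all single genes tested. The means of these ratios were 8.63 ± 2.06 against 8.97 ± 1.53 for Pnpla2 over G0s2, and 1.27 ± 0.0907 against 1.03 ± 0.132 for Abhd5 over G0s2 (SD, n = 3 and 2).

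Of the genes for the later steps of triglyceride breakdown, Lipe had the log2 fold change of the smallest absolute size among the 9 members. Lipe, hormone-sensitive lipase (ENSMUSG00000003123, chromosome 7, 25379527 to 25398710, 10 exons), had an FPKM of 8.08, 8.36 and 8.65 in WT control TA and 8.41 and 8.45 in the knockout-labelled libraries. It had the lowest coefficient of variation of the members in WT control TA, 3.41%, beside its estimated counting error of 2.6% to 2.7% in those libraries. The log2 fold change was 0.01 (SE 0.10, 95% CI -0.24 to 0.26, adjusted p = 0.982 from limma). Mgll, monoglyceride lipase (ENSMUSG00000033174, chromosome 6, 88724412 to 88828360, 8 exons), had an FPKM of 11.3, 11.2 and 9.51 in WT control TA and 9.33 and 10.2 in the knockout-labelled libraries, and the groups overlapped. For Mgll the log2 fold change was -0.13 (95% CI -0.43 to 0.18, adjusted p = 0.769 from limma). The ratio of Mgll to Lipe was 1.40, 1.34 and 1.099 in WT control TA and 1.11 and 1.21 in the knockout-labelled libraries, with overlap. The ratio of Lipe to Pnpla2 was 0.0614, 0.0533 and 0.0494 in WT control TA and 0.0396 and 0.0426 in the knockout-labelled libraries, without overlap. Of all single genes tested, 30.2% showed no overlap either. In the annotation, exons of Abhd5, Lipe and Mgll share 950, 918 and 167 bases with antisense genes, and since the use of strand in the counting is not stated, fragments there cannot be assigned to a strand.

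Among the genes whose profile over the 5 libraries was nearest to that of Plin5 were Fer1l6 and B3galt1, with root mean square differences of 0.10 and 0.13 on the log2 scale. Both had their highest WT control value in replicate 2, at 1.04 and 2.65 FPKM. This likeness to Plin5, and that of the log2 fold changes, follows from choosing them by profile. Neither was called, with log2 fold changes of 1.40 and 1.55 (adjusted p = 0.174 and 0.117 from limma).

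Other genes of the pathway were followed through 3 lists. Of 21 tested genes for other lipid droplet proteins, limma called none. Before adjustment, p was no larger than 0.05 for 2 higher and 2 lower genes, beside 6.57% and 5.33% of all genes tested. The list's median log2 fold change was 0.03. Cidea, which joins droplets together in brown fat, was highest in this list, at 0.279, 0.442 and 0.434 FPKM in WT control TA and 1.41 and 1.37 in the knockout-labelled libraries. Cidea had a log2 fold change of 1.64 (SE 0.27, adjusted p = 0.0953 from limma), and with a pseudocount of 1 in place of 0.1 it was called, though the log2 fold change was then 0.79 (adjusted p = 0.0470 from limma). Its WT control mean was 0.385 FPKM, so it passed the minimum of 0.5 FPKM only through the knockout-labelled libraries, at a mean of 1.39. Acsl3, an acyl-CoA synthetase of growing droplets, was lowest, at 5.45, 3.85 and 4.17 FPKM in WT control TA and 2.06 and 2.60 in the knockout-labelled libraries. Acsl3 had a log2 fold change of -0.91 (SE 0.19, adjusted p = 0.154 from limma). The other genes with such a p, named after their values were seen, were Fitm2, a droplet formation protein of the endoplasmic reticulum, at 0.35, and Tmem159, a partner of seipin, at -0.31. Hilpda, a further ATGL inhibitor, was singled out after its values were seen: it had an FPKM of 1.79, 2.13 and 1.94 in WT control TA and 2.31 and 2.91 in the knockout-labelled libraries (log2 fold change 0.39, adjusted p = 0.432 from limma).

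Among 15 tested genes for other neutral lipid hydrolases, none was called by limma, and the median log2 fold change was 0.08. Before adjustment, 2 were higher and 1 lower, beside 6.57% and 5.33% of all genes tested. Nceh1, a cholesteryl ester hydrolase, was highest, with an FPKM of 4.52, 9.59 and 5.69 in WT control TA and 14.0 and 14.3 in the knockout-labelled libraries. Nceh1 had a log2 fold change of 1.16 (SE 0.29, adjusted p = 0.221 from limma), and was called without WT control replicate 2 (1.46, adjusted p = 0.0428 from limma). Pnpla3, a close relative of ATGL named after its values were seen, was at 2.20, 1.17 and 2.05 FPKM in WT control TA and 2.73 and 3.10 in the knockout-labelled libraries. Pnpla7, a lysophospholipase, was lowest in the list at -0.37. For 21 tested genes of lipolysis signaling, which carry the adrenergic, cyclic AMP and insulin signals that set lipase activity, limma called none. Of these, 1 was higher and 0 lower before adjustment, and the median was -0.02. That gene was Akap1, which anchors protein kinase A at mitochondria, with an FPKM of 27.5, 42.8 and 29.5 in WT control TA and 53.7 and 53.4 in the knockout-labelled libraries. Akap1 had a log2 fold change of 0.71 (SE 0.19, adjusted p = 0.248 from limma), and was also called without WT control replicate 2 (0.91, adjusted p = 0.0453 from limma). The lowest log2 fold change in that list was -0.20, for Prkar1b.

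**Figure D5:**
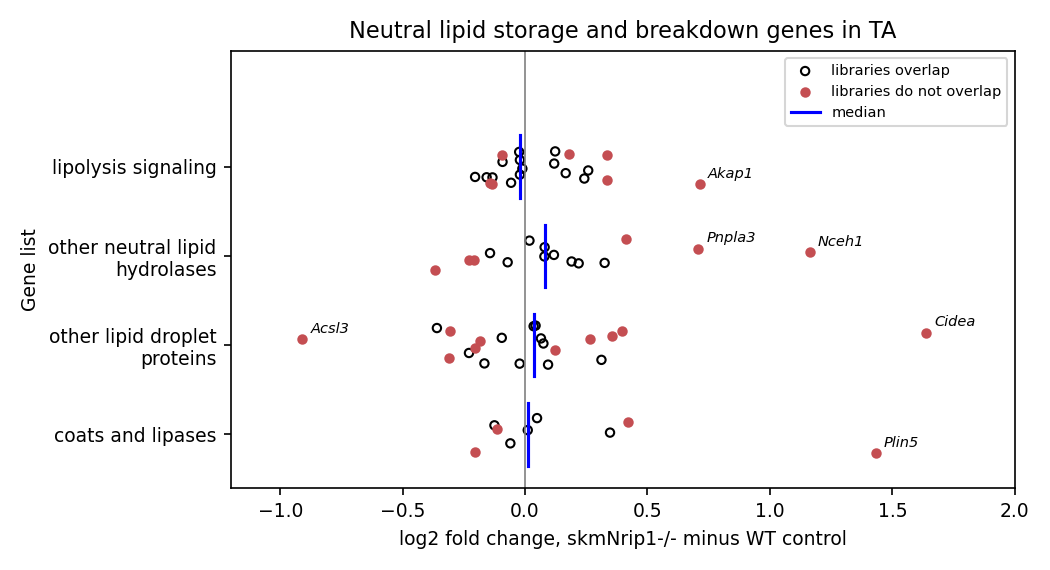
Log2 fold change (skmNrip1-/- minus WT control) of the tested genes of 4 lists, with 1 point per gene, jittered vertically; filled red points have libraries that do not overlap, and the blue line is the list's median. The medians lie between -0.02 and 0.08, and Plin5, Cidea and Nceh1 stand to the right of their lists.

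Several members are also expressed by fat cells, and in whole muscle a different number of cells of a type and a different amount of RNA per cell cannot be told apart. Adiponectin (Adipoq), made by fat cells, was at 1.35, 0.627 and 1.33 FPKM in WT control TA and 1.03 and 1.16 in the knockout-labelled libraries. Plin1, the perilipin of fat cells, was at 0.350 to 0.957 FPKM in WT control TA and 0.367 and 0.598 in the knockout-labelled libraries, and Cidec was at 0.770 to 0.925 against 0.887 and 0.967. The leptin gene was under 0.3 FPKM in every library. Fabp4, which endothelial cells express as well, was at 120.2 to 187.0 FPKM against 145.0 and 150.3. Of 9 tested fat cell markers limma called none, and 2, Adig and Cidea, had an unadjusted p of 0.05 or less. Both were higher, where 6.57% of all genes tested were higher at such a p. Adig had an FPKM of 1.87, 2.40 and 0.881 in WT control TA and 11.1 and 8.13 in the knockout-labelled libraries (log2 fold change 2.51, SE 0.39, adjusted p = 0.0792 from limma). Adig was called with a pseudocount of 1 (log2 fold change 1.995, adjusted p = 0.0381 from limma) and after rescaling to TPM (2.21, adjusted p = 0.0487 from limma). The summed FPKM of the 14 listed fat cell markers was 153.8 to 225.9 in WT control TA and 190.1 and 194.4 in the knockout-labelled libraries, and none of the 14 was at 0 in any library. Fabp4 made up most of this sum in every library, so the sum mainly follows Fabp4 and is no clean measure of fat cells. The summed level of 10 macrophage markers was 24.3 to 45.8 FPKM against 28.7 and 37.9. That of 10 endothelial markers was 153.2 to 170.5 FPKM in WT control TA and 143.7 and 143.5 in the knockout-labelled libraries, lower in both. That of 10 fast muscle markers, a list that also holds Acta1 and Ckm, which slow fibers express too, was 95010 to 134000 FPKM against 91720 and 87190, also lower in both, and 2 of them, Actn3 and Mybpc2, were lower at an unadjusted p of 0.05 or less. Of all genes tested, 5.33% were lower at such a p. The part of the marker shifts in the levels of the members was not tested.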

How the data were processed

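The authors quantified the reads with Salmon 1.10.2 on mm10 and used tximport for gene values. They deposited FPKM for each gene and library. How FPKM was computed, the annotation release and the use of strand are not given in the sources used here. The authors' log2 fold changes and adjusted p-values from DESeq2 1.44.0, deposited beside the FPKM, were not used.

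Libraries were grouped by their public labels. limma 3.58.1 (R 4.3.3, eBayes with trend) was run without covariates on log2(FPKM + 0.1), which understates changes of low genes, with Benjamini-Hochberg adjustment over genes averaging 0.5 FPKM or more. Call thresholds are the study's. The labels do not say that libraries of a group are separate mice, and p-values measure the spread between these libraries. Positions are from GENCODE M21 (GRCm38), which holds 16996 of the gene IDs. Transcripts of at least 2000 nucleotides gave the steps of 1 fragment. The limma step was tested on simulated data. It called, in the right direction, 54 of 96 genes with a log2 change of 1 and 92 of 104 with a change of 2. Of 11948 unchanged genes it called 6. A gene that is not called can therefore still differ.

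The members and lists were chosen with earlier results of these data known. Named genes are the members, Nrip1, the highest, lowest and any called gene of each list, 5 fat cell markers, and the 3 profiles nearest to Plin5. A gene that meets this rule is not reported here. Alternatives were other pseudocounts, FPKM minimums, scalings and eBayes options, the replicate number as a block, and each library left out.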

Additional observations from a re-analysis of the deposited data

How the results depend on the processing

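Plin2, Plin4, Plin5, Pnpla2, Mgll and G0s2 kept their direction under all 14 alternatives, and none of the 9 members was called under any of them except Plin5, which was called without WT control replicate 2. Over the alternatives the log2 fold change of Plin5 ranged from 1.13 to 1.71 and its adjusted p from limma from 0.0202 to 0.482; the fits that leave out a replicate have fewer libraries, and those with 1 library left in a group assume that it varies like the rest. Small differences turned sign. Rescaled to TPM, Abhd5 was at -0.25 and Lipe at -0.28, where the median of all genes was -0.29, and Plin3 was at 0.015 when the genes of mtDNA were left out of the TPM. With a replicate left out, Plin3 ranged from -0.33 to 0.21, Abhd5 from -0.031 to 0.16 and Lipe from -0.013 to 0.036.

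The median of the members was -0.28 after rescaling to TPM. That of the other lipid droplet proteins was -0.022 with a minimum of 1 FPKM, -0.26 with TPM, 0.11 with TPM without mtDNA and -0.014 with the replicate block, and -0.033 to 0.036 with a replicate left out. That of the other hydrolases was -0.22 with TPM, 0.155 with TPM without mtDNA and 0.032 with the block, and 0.032 to 0.14 with a replicate left out, and that of lipolysis signaling was -0.31 with TPM. In place of none, 1 other droplet protein was called with a pseudocount of 1 (Cidea) and with TPM (Acsl3), and with a replicate left out 0 to 1 of the members, hydrolases and signaling genes were called, the 1 being Plin5, Nceh1 and Akap1 without WT control replicate 2.

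Over all genes, 45 were called higher and 10 lower. These counts were 29 and 59 with TPM, 22 and 3 without the eBayes trend, 18 and 4 with the replicate block, and 14 and 3 at an adjusted p of 0.01 or less. With a replicate left out they were 6 to 51 and 2 to 15. The groups share replicate numbers 1 and 2, and the sources used here do not say that the number pairs libraries. Deviations from the group means correlated at 0.07 and 0.10 between same-numbered libraries. With 2 knockout-labelled libraries these deviations mirror each other, so the correlations cannot decide whether the number marks a shared litter or batch. With the block Plin5 was at 1.27 (adjusted p = 0.209 from limma). The cause of these shifts was not tested.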

Other observations

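Among genes of muscle fiber type, the ventricular and slow muscle light chain Myl2 had an FPKM of 2.03, 1.85 and 9.68 in WT control TA and 42.1 and 33.6 in the knockout-labelled libraries. Myl2 had a log2 fold change of 3.46 (SE 0.67, adjusted p = 0.127 from limma). It was called without WT control replicate 3, at 4.21 (adjusted p = 0.00446 from limma). With the replicate block it was also called at 4.21 (adjusted p = 0.0111 from limma). The block is no separate check, because it too takes WT control replicate 3, alone under its number, out of the estimate. The slow light chain Myl3 went the other way, at 89.5, 124.4 and 285.3 FPKM in WT control TA and 54.1 and 71.3 in the knockout-labelled libraries (log2 fold change -1.24, adjusted p = 0.359 from limma). Of 8 slow muscle markers limma called none, and 2 had an unadjusted p of 0.05 or less, beside 11.9% of all genes tested. Of 10 fast muscle markers none was called, and 9 were below 0, beside 6084 of all 12148 genes tested. Of these 9, 2 had an unadjusted p of 0.05 or less, where 5.33% of all genes tested were lower at such a p. The 10 markers ran from -0.77 for Actn3 to 0.05 for Myh1. Actn3 was called after rescaling to TPM (log2 fold change -1.07, adjusted p = 0.0213 from limma), a scale that moved the median of all genes to -0.29.

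WT control replicate 2 held the highest WT control value of Plin5, Nceh1 and Akap1, at 14.0, 9.59 and 42.8 FPKM. These are named because they were the list genes called without that library, with log2 fold changes of 1.71, 1.46 and 0.91 (adjusted p = 0.0202, 0.0428 and 0.0453 from limma). Leaving out the WT control library nearest to the knockout-labelled values widens such a difference by construction. Plin3, Abhd5 and G0s2 also had their highest WT control value there, at 20.31, 26.92 and 21.85 FPKM, and were not called without it. Over all genes, that fit called 51 higher and 15 lower, against 45 and 10 with every library. WT control replicate 2 also had the highest share of mtDNA-encoded genes in WT control TA, 50.7%, against 47.2% and 45.4% in replicates 1 and 3. A link between this share and the calls was not tested. Among endothelial markers the log2 fold changes ran from -0.32 for Cldn5 to 0.07 for Kdr, and among macrophage markers from -0.33 for C1qa to 0.39 for Mrc1, with none called by limma and 0 at an unadjusted p of 0.05 or less in either list.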
